A study of Mus musculus with 8 samples.

Results

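The circadian clock genes of the mouse mesenchymal stem cell (MSC) line C3H10T1/2, which can turn into fat cells, were followed over 5 days from adipogenic induction. The 10 genes were taken by symbol from the 41325 symbols listed for each library: the activators *Arntl* (BMAL1) and *Clock*, the repressors *Per1*, *Per2*, *Per3*, *Cry1* and *Cry2*, the nuclear receptors *Nr1d1* and *Nr1d2* (REV-ERBα and REV-ERBβ), and the output factor *Dbp*. Expression was measured by RNA-seq in 4 stable lines, labelled shControl (wild type), shKDM4D, shNFIB and shMLL1, in which shRNA was directed against the histone H3K9 demethylase KDM4D, the transcription factor NFIB and the histone H3K4 methyltransferase MLL1 (*Kmt2a*). Each line was sequenced at day 0, which is 2 days after confluence and before hormone, and at day 5, after insulin, dexamethasone and isobutylmethylxanthine to day 2, then insulin alone, then plain medium with serum, which all lines received alike. The knockdown cells were puromycin-resistant clones carrying pLKO.1 shRNA, so a difference between lines can also be one between clones, and how the shControl cells were made is not given in the sources used here. There was 1 library for each line and day, 8 in all, with 15840000 to 38200000 mapped reads. Intervals given below are exact 95% intervals that reflect the counting of reads alone, and a single line allows no p-value. The time of day of harvest is not given in the sources used here, so that a shift of phase and a change of the mean level of a rhythmic gene cannot be told apart. In bulk RNA, fewer cells of a type and less RNA per cell cannot be told apart either.

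The clock is a feedback loop of transcription. CLOCK and BMAL1 bind E-box sequences together and activate the *Per*, *Cry*, *Nr1d* and *Dbp* genes, PER and CRY proteins return to the nucleus and inhibit them, REV-ERB receptors repress *Arntl* against the activating ROR receptors, and DBP and TEF activate genes with D-box sequences, where NFIL3 represses. The loop runs in most cells of the body, including mesenchymal and fat cells, and MLL1 is known as a partner of CLOCK that methylates histone H3 at clock-controlled genes.

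The sequences through which the loop closes can be read at the start sites of the genes. RefSeq windows from 250 bases before to 50 bases after a start site (GRCm38.p6) were held for 9 of the 10 genes (all but *Per2*), in 13 windows, and were searched on both strands. The E-box CACGTG was found in the windows of *Per1* and *Cry1* (7.15% of all 32851 windows hold it), and the E-box-like CACGTT in those of *Cry1*, *Cry2* and *Nr1d1* (4.68%). The D-box TTANGTAA was found in *Per3* (2.32%). The hexamer AGGTCA, which REV-ERB and ROR receptors bind as part of a longer element, was found in *Arntl*, *Clock*, *Per1* and *Nr1d2* (16.3%). A match describes the letters in these windows and does not show binding. The stretches of 30 bases around the E-boxes and D-boxes follow because these are the letters that the loop's activators are known to bind. They run 5′ to 3′ on the strand of the gene, with the matched letters in capitals, and AACGTG is CACGTT read from the other strand.
Per1, E-box 166 bases before the start site, chr11:69098771-69098800, plus strand: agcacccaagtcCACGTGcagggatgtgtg
Cry1, E-box 60 bases before, chr10:85185097-85185126, minus strand: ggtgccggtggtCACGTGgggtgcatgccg
Cry1, E-box-like 79 bases before, chr10:85185116-85185145, minus strand: acacacttcagaAACGTGaggtgccggtgg
Cry2, E-box-like 166 bases before, chr2:92434218-92434247, minus strand: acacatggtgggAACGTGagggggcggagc
Nr1d1, E-box-like 28 bases before, chr11:98775388-98775417, minus strand: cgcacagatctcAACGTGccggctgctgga
Per3, D-box 205 bases before, chr4:151044852-151044881, minus strand: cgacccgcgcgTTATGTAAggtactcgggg
Per3, D-box 158 bases before, chr4:151044805-151044834, minus strand: cccgcccgcggTTATGTAAcccccgccgtg

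All 10 genes were expressed in each of the 8 libraries, with 152 to 4312 reads per gene and library. Levels are given as RPKM, which corrects the reads of a gene for its exon length and for the mapped reads of the library, and genes are compared with each other only on this scale. The median RPKM of the 10 genes in shControl cells was 3.05 before and 5.49 after the 5 days, beside 6.11 and 6.17 for all 11513 expressed genes (RPKM over 1 in at least 1 library). *Nr1d2* had the highest level of the 10 in every line at day 0, at 15.7 to 21.5 RPKM, although in shKDM4D cells *Dbp* followed at 18.7 within the interval, and *Dbp* in every line at day 5, at 12.1 to 20.99 RPKM. *Clock* was the most even, with its highest level 1.39 times the lowest over the 8 libraries, and *Per1* the least, at 4.70 times.

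**Figure D1:**
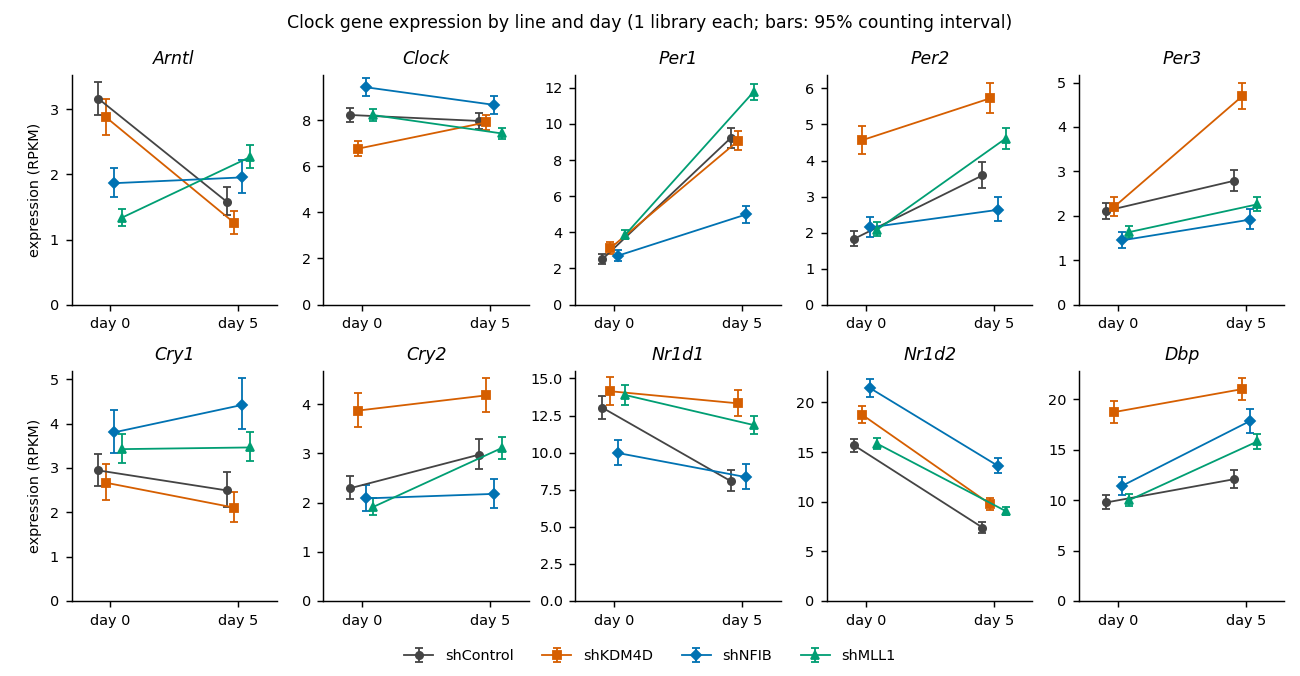
RPKM (vertical axis, from 0) of each of the 10 clock genes at day 0 and day 5. Each point is 1 library, bars are 95% counting intervals and lines join the 2 libraries of a line. *Per1* is higher and *Nr1d2* lower at day 5 in all 4 lines, whereas *Arntl* goes down in shControl and shKDM4D cells and up in shMLL1 cells.

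Whether the clock genes changed with differentiation was examined first. Over the 4 lines, *Per1*, *Per2*, *Per3* and *Dbp* rose from day 0 to day 5 and *Nr1d2* fell, while *Arntl*, *Clock*, *Cry1*, *Cry2* and *Nr1d1* did not pass the test. The test was limma's moderated test on log2(RPKM + 0.1), with the 4 lines as pairs of libraries, over all 11513 genes (Benjamini-Hochberg adjusted p under 0.05). It called 5 of the 10 genes, 4 higher and 1 lower at day 5, whereas 50% of all genes were called, 29% higher and 21% lower, so the share of clock genes called equals the background. The median change of the 10 genes was 0.14 on the log2 scale and that of all genes 0.08. In direction alone, 5 clock genes were higher at day 5 in all 4 lines (36.6% of all genes) and 2 were lower in all 4 (27.9%). The lines are not replicates of 1 condition, and the test sets the mean day change against the spread of that change among the lines.

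*Per1*, a repressor that glucocorticoids and cAMP are also known to induce, moved most. The gene (69095217 to 69109960 of chromosome 11, plus strand, in GRCm38) is protein coding, as are the other 9. The window with the E-box shown above belongs to a RefSeq start site 3732 bases inside these bounds. It had an RPKM of 2.51 in shControl, 3.11 under shKDM4D, 2.70 under shNFIB and 3.88 under shMLL1 at day 0. At day 5 it had 9.215, 9.07, 4.99 and 11.8 in the same order. All 4 libraries of day 5 were above all 4 of day 0, and shNFIB cells had the lowest value at day 5. The change was 1.45 (SE 0.17, adjusted p = 0.00155, limma) over the 4 lines. Within the lines the log2 ratio of day 5 to day 0 was 1.88 (1.71 to 2.05) in shControl, 1.54 (1.37 to 1.72) under shKDM4D, 0.88 (0.67 to 1.10) under shNFIB and 1.60 (1.49 to 1.72) under shMLL1.

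*Per2* (91415982 to 91459324 of chromosome 1, minus strand) and *Per3* (151003652 to 151044665 of chromosome 4, minus strand) encode the other PER proteins. *Per2* had an RPKM of 1.83 in shControl, 4.56 under shKDM4D, 2.14 under shNFIB and 2.08 under shMLL1 at day 0, and of 3.59, 5.73, 2.63 and 4.61 at day 5. Each line was higher at day 5, but the days overlapped, because shKDM4D cells at day 0 were already above shControl cells at day 5. Its change over the lines was 0.66 (SE 0.17, adjusted p = 0.0219, limma). The adjusted p was 0.0775 without shControl and 0.0639 without shMLL1 cells, the lines with the largest ratios (0.97, 0.75 to 1.20, and 1.15, 0.99 to 1.31). The ratio was 0.33 (0.16 to 0.49) in shKDM4D and 0.30 (0.03 to 0.56) in shNFIB cells, the latter of which became -0.27 when values were taken relative to *Gapdh*.

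*Per3* had an RPKM of 2.11, 2.195, 1.44 and 1.63 at day 0 and of 2.79, 4.69, 1.91 and 2.26 at day 5 in shControl, shKDM4D, shNFIB and shMLL1 cells. Of the 9 genes with a window, *Per3* is the one with D-box letters in it. The shKDM4D cells at day 5 stood above the other 7 libraries. The change over the lines was 0.57 (SE 0.16, adjusted p = 0.0256, limma), and it missed the limit when any 1 of the lines was left out (adjusted p from 0.0504 to 0.0903). After quantile normalization it was 0.31 (adjusted p = 0.213, limma). The log2 ratio was 1.10 (0.93 to 1.27) in shKDM4D cells and between 0.40 and 0.47 in the other 3 lines, where it became -0.16 in shNFIB cells relative to *Gapdh* and -0.05 in shMLL1 cells after quantile normalization.

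*Dbp*, the PAR bZIP factor that reads out CLOCK and BMAL1 activity, lies at 45705088 to 45710203 of chromosome 7, plus strand. It had an RPKM of 9.76 in shControl, 18.7 under shKDM4D, 11.4 under shNFIB and 10.0 under shMLL1 at day 0. At day 5 it had 12.1, 20.99, 17.8 and 15.8. Each line was higher at day 5, and shKDM4D cells had the highest value on both days. The change over the lines was 0.44 (SE 0.12, adjusted p = 0.0211, limma), with adjusted p = 0.0756 without shNFIB and 0.0672 without shMLL1 cells, the lines with the largest ratios (0.65, 0.50 to 0.80, and 0.66, 0.55 to 0.77). The ratio was 0.31 in shControl and 0.17 in shKDM4D cells. Relative to *Gapdh* the change over the lines missed the limit (adjusted p = 0.291, limma). *Dbp* shares 539 of its 2993 exon bases (18%) with *Sphk2* on the opposite strand, and whether the counting used strand is not stated. *Sphk2* itself had an RPKM of 2.165 to 3.31 in the 8 libraries.

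*Nr1d2* (18204054 to 18239127 of chromosome 14, minus strand) encodes REV-ERBβ. It had an RPKM of 15.7 in shControl, 18.8 under shKDM4D, 21.5 under shNFIB and 15.8 under shMLL1 at day 0. It had 7.39, 9.75, 13.6 and 9.06 at day 5. All 4 libraries of day 5 were below all 4 of day 0, and shNFIB cells were highest on both days. The gene fell by 0.87 on the log2 scale over the lines (SE 0.10, adjusted p = 0.00152, limma). The log2 ratio was -1.08 (-1.20 to -0.96) in shControl, -0.95 (-1.05 to -0.84) under shKDM4D, -0.66 (-0.76 to -0.55) under shNFIB and -0.80 (-0.89 to -0.72) under shMLL1.

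*Nr1d1* (98767932 to 98775333 of chromosome 11, minus strand) encodes its paralog REV-ERBα. It had an RPKM of 13.0, 14.1, 9.98 and 13.9 at day 0 and of 8.09, 13.3, 8.35 and 11.9 at day 5 in shControl, shKDM4D, shNFIB and shMLL1 cells. Each line was lower at day 5, by the widest margin in shControl cells (-0.69, -0.85 to -0.53) and by the narrowest in shKDM4D cells (-0.09, -0.22 to 0.05), where the ratio to *Gapdh* gave 0.38. The change over the lines did not pass the test (-0.31, SE 0.12, adjusted p = 0.0699, limma), but did after quantile normalization (adjusted p = 0.0481). *Nr1d1* shares 263 of its 3077 exon bases (8.55%) with *Thra*, the thyroid hormone receptor gene on the opposite strand. *Thra* rose by 1.79 (SE 0.11, adjusted p = 0.000488, limma), from 20.16 to 32.1 RPKM at day 0 to between 62.4 and 119.4 RPKM at day 5. What part of the *Nr1d1* values came from *Thra* reads was not tested.

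*Arntl*, which encodes the activator BMAL1 (113207465 to 113314126 of chromosome 7, plus strand), went in different directions in the 4 lines. In shControl cells its RPKM was 3.16 at day 0 and 1.58 at day 5, and in shKDM4D cells 2.88 and 1.25. For shNFIB cells it was 1.87 and 1.955, and for shMLL1 cells 1.33 and 2.27. The 2 highest values were those of shControl and shKDM4D cells at day 0, and the next lower library, shMLL1 at day 5, did not overlap them in its interval. The log2 ratio of day 5 to day 0 was -1.0 (-1.22 to -0.78) in shControl and -1.20 (-1.45 to -0.95) in shKDM4D cells. It was 0.07 (-0.19 to 0.33) under shNFIB and 0.77 (0.58 to 0.95) under shMLL1. The sign in shControl, shKDM4D and shMLL1 cells was the same on every scale tried, with 0.21 after quantile normalization as the lowest value in shMLL1 cells, while that in shNFIB cells became -0.22 after quantile normalization and -0.50 relative to *Gapdh*. Over the lines the change was -0.33 (SE 0.33, adjusted p = 0.432, limma), with the largest SE of the 10 genes.

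*Clock* (76209868 to 76304792 of chromosome 5, minus strand) encodes the partner of BMAL1. It had an RPKM of 8.23, 6.77, 9.43 and 8.22 at day 0 and of 7.97, 7.91, 8.67 and 7.43 at day 5 in shControl, shKDM4D, shNFIB and shMLL1 cells. Its change was -0.02 (SE 0.10, adjusted p = 0.867, limma), and its log2 ratios of day 5 to day 0 lay between -0.15 and 0.23. Of the cryptochromes, *Cry1* lies at 85131700 to 85185064 of chromosome 10, minus strand and *Cry2* at 92403646 to 92434043 of chromosome 2, minus strand. *Cry1* ranged from 2.105 RPKM in shKDM4D cells at day 5 to 4.42 RPKM in shNFIB cells at day 5, with a change of -0.08 (SE 0.13, adjusted p = 0.613, limma). In the order of its 8 levels every neighbour overlapped the next in its interval. *Cry2* ranged from 1.91 RPKM in shMLL1 cells at day 0 to 4.18 RPKM in shKDM4D cells at day 5. It was higher at day 5 in all 4 lines, by 0.37 (0.16 to 0.58) in shControl and 0.70 (0.53 to 0.87) in shMLL1 cells, but by 0.11 (-0.07 to 0.29) in shKDM4D and 0.06 (-0.21 to 0.33) in shNFIB cells, where quantile normalization gave -0.20 and the ratio to *Gapdh* -0.50. The change over the lines did not pass the test (0.30, SE 0.14, adjusted p = 0.117, limma).

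By size within a line, 8 of the 40 ratios of day 5 to day 0 went past 2-fold, of which 6 did so relative to *Gapdh*. In shControl cells *Per1* was higher (13% of all genes were) and *Nr1d2* and *Arntl* were lower (8.56%), *Arntl* just past the limit and at -0.97 relative to *Gapdh*. In shKDM4D cells *Per1* and *Per3* were higher (12.8% of all genes) and *Arntl* was lower (8.44%), at -0.73 relative to *Gapdh*. In shMLL1 cells *Per1* and *Per2* were higher (20.4%) and none of the 10 was lower (6.89%). In shNFIB cells none went past 2-fold, whereas 12.6% of all genes were higher and 4.96% lower by that much, but *Nr1d2* was at -1.22 relative to *Gapdh*. No clock gene went past 2-fold in all 4 lines, as 6.93% of all genes did upward and 2.48% downward.

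**Figure D2:**
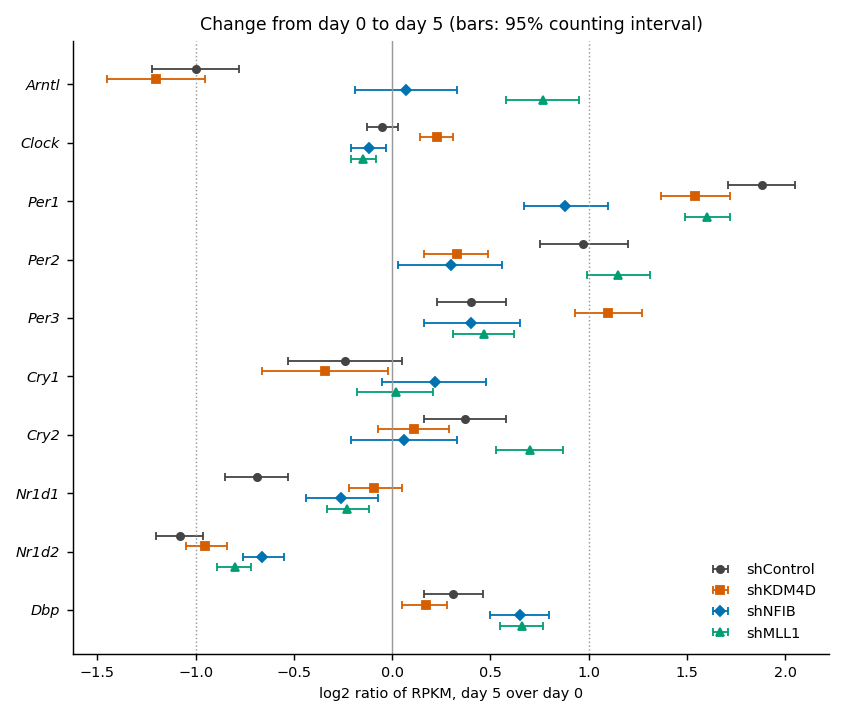
Log2 ratio of RPKM at day 5 to day 0 (horizontal axis) for each clock gene in each line, with 95% counting intervals as bars and the 2-fold limits as dotted lines. The 4 *Arntl* points spread from -1.20 to 0.77, wider than those of any other gene, while those of *Clock* lie between -0.15 and 0.23.

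Marker genes of cell types were examined as well. The 6 mesenchymal markers examined (*Col1a1*, *Col1a2*, *Vim*, *Prrx1*, *Twist2* and *Pdgfra*) were above an RPKM of 1 in every library, with a sum of 1920 to 2872 RPKM. That sum is mostly *Col1a1*, *Col1a2* and *Vim*. By the limma test *Pdgfra* rose by 1.70 (adjusted p = 0.00145), *Col1a2* rose by 0.35 (adjusted p = 0.0218) and *Twist2* fell by 0.95 (adjusted p = 0.0113) on the log2 scale from day 0 to day 5, and the other 3 did not pass. The sum of 6 adipocyte markers (*Fabp4*, *Adipoq*, *Plin1*, *Cidec*, *Lpl* and *Cd36*) was 0.154 to 0.723 RPKM at day 0, with 2 to 4 of them at 0. At day 5 it was 745.8 in shControl, 25.4 under shKDM4D, 0.956 under shNFIB and 2.74 under shMLL1. Markers of blood, epithelial and endothelial cells summed to 1.07 to 3.41 RPKM, with *Epcam* at 0 in all libraries. Of these, the epithelial cadherin gene *Cdh1* had log2 ratios of day 5 to day 0 of -1.92 (-2.46 to -1.41) in shControl, -0.51 (-0.89 to -0.12) under shKDM4D, 0.63 (0.14 to 1.13) under shNFIB and 0.83 (0.45 to 1.21) under shMLL1. The sign was that of *Arntl* in shControl, shKDM4D and shMLL1 cells, while the *Arntl* interval held 0 in shNFIB cells. The macrophage marker *Cd68* had a log2 ratio of 1.43 (0.74 to 2.15) in shMLL1 cells, and its interval held 0 in the other 3 lines. *Per1* was higher and *Nr1d2* lower at day 5 also in the lines in which the adipocyte markers stayed low, at 0.88 and -0.66 in shNFIB cells and at 1.60 and -0.80 in shMLL1 cells. A pair of rRNA-like transcripts took 7.95 to 10.5% of the mapped reads at day 0 and 3.07 to 3.62% at day 5, and the part of these transcripts and of the markers in the day changes was not tested.

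Whether the knockdown lines differed from shControl cells was examined next, at each day on its own. The targeted genes were examined first as a check of the labels. *Nfib* had a log2 ratio of shNFIB to shControl cells of -2.10 (-2.22 to -1.98) at day 0, and *Kmt2a* one of shMLL1 to shControl cells of -1.37 (-1.47 to -1.27). *Kdm4d* had 1 read in shKDM4D and 2 reads in shControl cells at day 0, against 4 and 13 reads at day 5, so that its knockdown was not detectable at this depth at day 0. The 3 comparisons of a day share the shControl library, and are given side by side for that reason.

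At day 0, *Per2* was the one clock gene over 2-fold higher in a knockdown line, in shKDM4D cells, with a log2 ratio to shControl cells of 1.32 (1.11 to 1.53), where 1.98% of all genes were over 2-fold higher and 4.26% lower. *Arntl* was the one over 2-fold lower, in shMLL1 cells, at -1.25 (-1.43 to -1.06), where 1.67% of all genes were higher and 7.43% lower. In shNFIB cells none of the 10 went past 2-fold (2.95% higher, 6.05% lower), and *Arntl* had the lowest ratio, at -0.76 (-0.97 to -0.55). Relative to *Gapdh* this ratio was -0.12, and *Nr1d2* and *Cry1* went past the limit in these cells, at 1.09 and 1.01. The calls of *Per2* in shKDM4D and *Arntl* in shMLL1 cells also depended on the scale. With 1 added to each RPKM the ratios were 0.98 for *Per2* and -0.84 for *Arntl*, relative to *Gapdh* the former was 0.92, and after quantile normalization the latter was -0.96.

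In shKDM4D cells, *Dbp* and *Cry2* were also above shControl cells at day 0, by 0.94 (0.80 to 1.07) and 0.76 (0.56 to 0.95). At day 5 no clock gene was past 2-fold in shKDM4D cells (1.88% of all genes higher, 4.57% lower). The ratios there were 0.80 (0.67 to 0.93) for *Dbp*, 0.75 (0.59 to 0.91) for *Per3*, 0.72 (0.56 to 0.88) for *Nr1d1*, 0.68 (0.50 to 0.85) for *Per2* and 0.49 (0.30 to 0.69) for *Cry2*. *Arntl* had the lowest ratio, at -0.33 (-0.61 to -0.06). The median ratio of the 10 genes was 0.45 and that of all genes 0.01. These medians at day 5 were 0.36 and 0.07 in shMLL1 cells, and 0.08 and 0.09 in shNFIB cells.

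In shNFIB cells at day 5 none of the 10 was past 2-fold (5.54% of all genes higher, 5.67% lower). *Nr1d2* and *Cry1* were highest against shControl cells, at 0.88 (0.75 to 1.01) and 0.83 (0.53 to 1.13), and *Dbp* followed at 0.56 (0.42 to 0.71). All 3 *Per* genes were lower, *Per1* at -0.89 (-1.05 to -0.72), *Per3* at -0.54 (-0.76 to -0.33) and *Per2* at -0.45 (-0.68 to -0.21). In shMLL1 cells at day 5 none was past 2-fold either (5.25% higher, 4.02% lower). *Nr1d1*, *Arntl*, *Cry1* and *Dbp* were above shControl cells by 0.55 (0.40 to 0.70), 0.52 (0.30 to 0.74), 0.47 (0.21 to 0.74) and 0.39 (0.26 to 0.52), and *Per3* was below at -0.31 (-0.47 to -0.14). By RPKM, *Arntl* thus stood below shControl cells at day 0 and above them at day 5 in shMLL1 cells. Relative to *Gapdh* its ratio was -1.46 at day 0 but only 0.16 at day 5, where *Cry1* was at 0.12 and *Per3* at -0.66. Over both days and the 3 lines, 2 of 60 ratios of RPKM went past 2-fold.

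**Figure D3:**
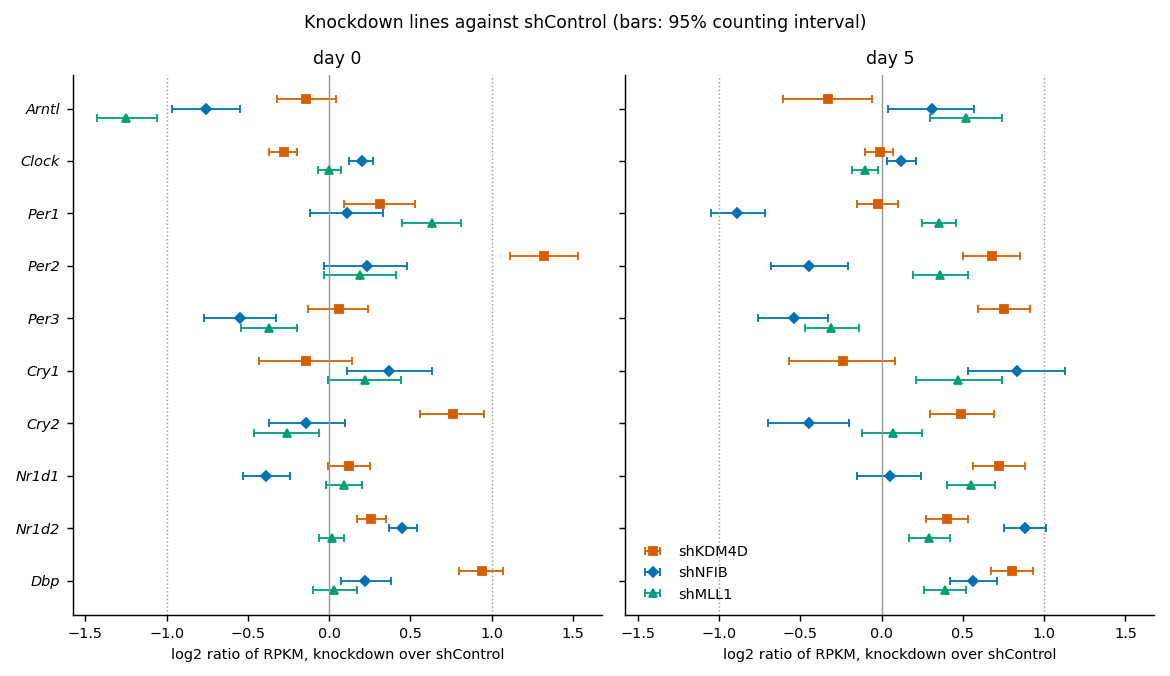
Log2 ratio of RPKM in each knockdown line to shControl cells (horizontal axis) at day 0 (left) and day 5 (right), with 95% counting intervals as bars and the 2-fold limits as dotted lines. *Arntl* in shMLL1 cells lies at -1.25 at day 0 and at 0.52 at day 5, and the 3 *Per* genes of shNFIB cells lie between -0.89 and -0.45 at day 5.

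The difference between a knockdown line and shControl cells in the change from day 0 to day 5 was over 1 on the log2 scale in 2 of 30 values, both of *Arntl*. It was 1.77 (1.48 to 2.05) in shMLL1 cells, where 9.83% of all genes were over 1 and 2.87% under -1. It was 1.07 (0.73 to 1.40) in shNFIB cells (7.05% and 4.09%). In shKDM4D cells none of the 10 went past this limit (2.81% and 3.22%), and *Arntl* differed by -0.20 (-0.52 to 0.13). *Per1* in shNFIB cells came close at -0.99 (-1.27 to -0.72). *Per2* differed by -0.65 (-0.92 to -0.37) in shKDM4D and -0.68 (-1.01 to -0.34) in shNFIB cells, whereas *Per3* differed by 0.69 (0.45 to 0.93) in shKDM4D cells and by 0.00 (-0.30 to 0.30) in shNFIB cells. Intervals of these differences come from the Poisson variance of the 4 read counts, and with 1 library for each condition none of the differences was tested. With 1 added to each RPKM, the *Arntl* value of shMLL1 cells stayed past the limit and that of shNFIB cells did not. Relative to *Gapdh*, *Arntl* differed by 1.62 in shMLL1 and by 0.47 in shNFIB cells, and *Per1* in shNFIB cells by -1.59.

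Because *Dbp*, the *Per* and the *Nr1d* genes are known to be driven by BMAL1, they were also set against *Arntl* within each library, a ratio that no scaling factor of a library can move. It was higher at day 5 than at day 0 in 17 of 24 ratios of gene and line and is read against the same ratio over all genes. In shControl cells 5 of 6 were higher (91.3% of all genes were), with a median difference of 1.35 on the log2 scale beside 1.03 for all genes. In shKDM4D cells 6 of 6 were higher (93.4%), with a median of 1.44 beside 1.23. In shNFIB cells 4 were higher (51.8%), with a median of 0.28 beside 0.02, and in shMLL1 cells 2 (26.3%), with a median of -0.20 beside -0.60. Relative to *Arntl*, *Per1* went from -0.34 to 2.54 in shControl cells, from 0.11 to 2.85 under shKDM4D, from 0.53 to 1.35 under shNFIB and from 1.54 to 2.38 under shMLL1. *Nr1d2* relative to *Arntl* differed between the days by -1.57 in shMLL1 cells and by -0.08 in shControl cells. These ratios all contain the same *Arntl* value of a library and are no independent measurements of one another.

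**Figure D4:**
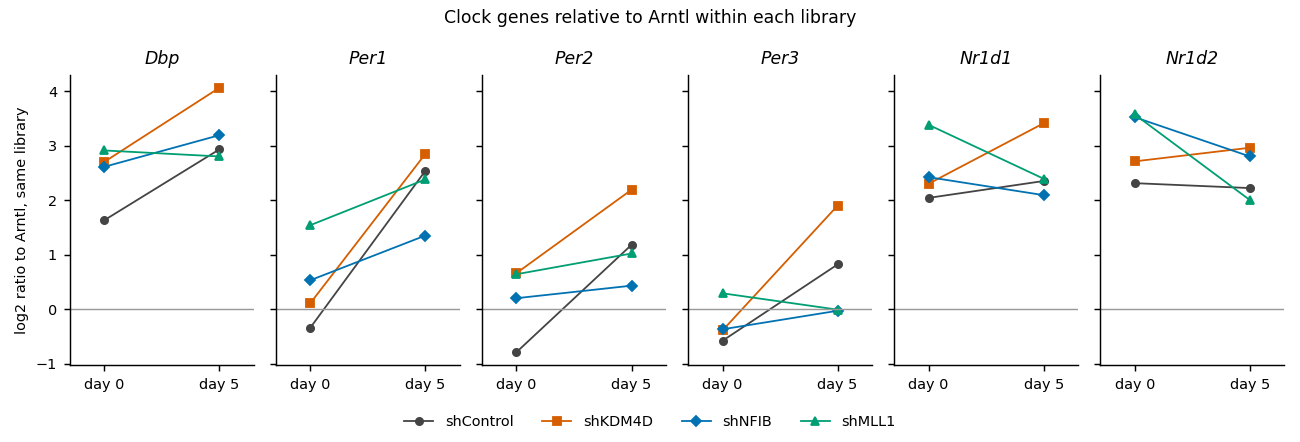
Log2 ratio of 6 clock genes to *Arntl* in the same library (vertical axis) at day 0 and day 5, with 1 point per library and a line for each cell line. The lines of shControl and shKDM4D cells climb for *Dbp* and the 3 *Per* genes, while those of shNFIB cells are flatter and those of shMLL1 cells are flatter or go down.

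Other factors of the loop were expressed to a different extent. Of the further clock transcription factors, 7 were expressed (median change 0.06, beside 0.08 for all genes). *Nfil3*, the D-box repressor, rose by 0.81 (SE 0.15, adjusted p = 0.00642, limma), from 3.99 to 8.84 RPKM over the 4 libraries of day 0 to 8.40 to 13.3 RPKM at day 5. *Tef*, a D-box activator like *Dbp*, rose by 0.49 (SE 0.08, adjusted p = 0.0043, limma), but missed the limit relative to *Gapdh* (adjusted p = 0.219) and with no line block (0.0969). The other 5 did not pass, among them *Rora*, the activator of *Arntl* that REV-ERB opposes. The value of *Rora* was 0.64 (SE 0.26, adjusted p = 0.0825, limma), with log2 ratios of 1.21 in shControl, 0.59 under shKDM4D, -0.29 under shNFIB and 1.23 under shMLL1, and passed without shNFIB cells (0.95, adjusted p = 0.0174).

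*Ciart*, a repressor of CLOCK and BMAL1, also varied widely between the lines. Its RPKM was 2.04 in shControl, 2.99 under shKDM4D, 1.02 under shNFIB and 2.165 under shMLL1 at day 0, and 0.343, 0.941, 1.535 and 1.88 at day 5. The log2 ratio of the days was -2.57 (-3.45 to -1.80) in shControl and -1.67 (-2.18 to -1.17) in shKDM4D cells, and its interval held 0 in shNFIB cells (0.59, -0.01 to 1.20) and shMLL1 cells (-0.20, -0.52 to 0.11). Over the lines it was -0.87 (SE 0.47, adjusted p = 0.162, limma), which passed relative to *Gapdh* (adjusted p = 0.0206).

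Genes that act on clock proteins were examined in the same way, where 50% of all genes were called. Of 7 expressed kinase and ubiquitin ligase genes (median change 0.00), *Btrc* rose (0.43, SE 0.14, adjusted p = 0.0422, limma) and 6 did not pass. *Btrc* missed the limit when any 1 of the lines was left out (adjusted p from 0.0831 to 0.118). Of 9 chromatin cofactors of the clock (median change -0.20), 3 passed. *Hdac3*, the deacetylase that works with REV-ERB, rose by 0.39 (SE 0.08, adjusted p = 0.0109, limma). *Sirt1*, a deacetylase of clock proteins, fell by 0.56 (SE 0.13, adjusted p = 0.0147, limma) and *Wdr5*, a subunit of MLL complexes, fell by 0.36 (SE 0.08, adjusted p = 0.015, limma). The adjusted p was 0.051 for *Hdac3* without shKDM4D cells, and without shControl cells 0.0562 for *Sirt1* and 0.0701 for *Wdr5*. *Sirt1* also missed the limit without shNFIB (0.0588) and without shMLL1 cells (0.0513). All 4 of these genes missed the limit relative to *Gapdh* (adjusted p from 0.0805 to 0.417) and with no line block (0.0674 to 0.101).

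Of 6 genes known as targets of the clock in other tissues, *Nampt* and *Usp2* rose, *Wee1* and *Lonrf3* fell, and *Por* and *Tspo* did not pass. *Nampt*, the enzyme of NAD salvage, rose by 1.98 (SE 0.16, adjusted p = 0.000657, limma), from 13.0 to 18.6 RPKM at day 0 to 51.6 to 74.97 RPKM at day 5. *Usp2*, a ubiquitin protease, rose by 1.63 (SE 0.31, adjusted p = 0.00733, limma), with 21 to 26 reads at day 0. The cell cycle kinase gene *Wee1* fell by 0.98 (SE 0.13, adjusted p = 0.00212, limma), and *Lonrf3* fell by 0.50 (SE 0.11, adjusted p = 0.0121, limma), with adjusted p = 0.116 relative to *Gapdh* and 0.109 with no line block. The median change of the 6 was -0.02.

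Genes induced by the same signals that are known to induce *Per1* were examined alongside it. Dexamethasone and isobutylmethylxanthine were given to day 2 only, and whether such signals changed *Per1* by day 5 was not tested. Of 8 glucocorticoid-induced genes, 6 rose and none fell, with a median change of 1.15. *Tsc22d3* rose by 1.66 (SE 0.33, adjusted p = 0.00798, limma), *Mt2* by 1.32, *Mt1* by 1.15, *Fkbp5* by 1.14 and *Klf9* by 1.07, while *Dusp1* and *Sgk1* did not pass. *Sgk1* had a log2 ratio of 0.77 in shControl, -0.73 under shKDM4D, -0.97 under shNFIB and -0.79 under shMLL1, and without shControl cells it passed as lower (-0.82, adjusted p = 0.00736, limma). *Fkbp5* missed the limit without shControl (adjusted p = 0.0631, limma) and without shMLL1 cells (0.059). *Zbtb16* had at most 1 read in each library of day 0 and 238, 53, 0 and 199 reads at day 5 in shControl, shKDM4D, shNFIB and shMLL1 cells. It missed the limit in 3 of the 4 fits without a line (adjusted p from 0.0998 to 0.13).

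Of 5 expressed immediate early genes, which answer serum and cAMP within minutes, 4 rose (*Fos* by 3.45, *Egr1* by 2.87, *Nr4a1* by 1.98 and *Ier2* by 1.27) and *Junb* did not pass, with a median change of 1.98 and *Fosb* not expressed. *Egr1* had an RPKM of 3.935, 4.51, 2.40 and 6.08 at day 0 and of 35.8, 30.45, 14.3 and 52.4 at day 5 in shControl, shKDM4D, shNFIB and shMLL1 cells. Its libraries of day 5 stand in the same order as those of *Per1*, with shMLL1 highest and shNFIB lowest, except that shControl and shKDM4D cells are nearly level for *Per1*. Among 5911 genes with a range of at least 1 on the log2 scale, *Egr1*, *Ier2*, *Aldh3a1*, *Nlgn2* and *Mertk* were most like *Per1* over the 8 libraries (Pearson's r of 0.98 each). The genes most like *Arntl* were *1500002C15Rik* (r = 0.96), *Cox6a2* (0.93), *Gch1* (0.90), *Slc1a4* (0.88) and *2210408F21Rik* (0.88), and those most like *Dbp* were *Gng11* (0.92), *Pax3* (0.90), *Lsp1* (0.90), *Ackr3* (0.89) and *Gm17382* (0.88). The 8 points share 2 days and 4 lines, so these values only describe the patterns.

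**Figure D5:**
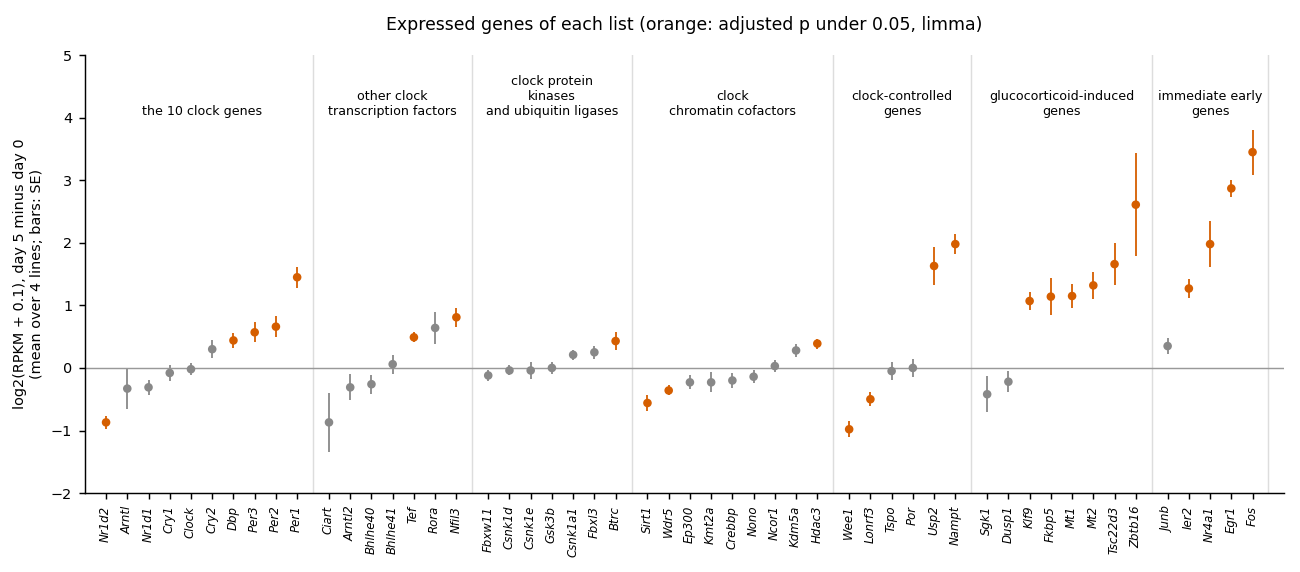
Change from day 0 to day 5 on the log2(RPKM + 0.1) scale (vertical axis, mean over the 4 lines, bars are SE) for the expressed genes of each list, orange where limma's adjusted p was under 0.05. The 10 clock genes lie between -0.87 (*Nr1d2*) and 1.45 (*Per1*), and the immediate early genes reach 3.45 (*Fos*, with 2 to 20 reads at day 0).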

How the data were processed

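RNA-seq was measured in 8 libraries (SMARTer stranded kit, HiSeq). The authors mapped the reads to GRCm38 (mm10) with CLC Genomics Workbench 11.0.1 and deposited RPKM per gene symbol. Strand use in counting is not given in the sources used here. Mapped reads per library were recovered from RPKM and GENCODE M21 exon lengths (40851 of 41325 symbols matched): 96.2 to 96.56% of values between 1 and 1000 reads lay within 0.02 of a whole read. Log2 ratios used RPKM without pseudocount and exact Clopper-Pearson 95% intervals. The limma test (R 4.3.3, limma 3.58.1, eBayes with trend) used log2(RPKM + 0.1), genes with RPKM over 1 in at least 1 library and line as block, with 3 residual degrees of freedom. It was also run on simulated reads whose day effect was, apart from noise, the same in all lines. That run does not show how the test behaves where lines differ in their day change, as for *Arntl*. Alternatives changed pseudocount, filter, scaling, block and lines. The 10 genes and all gene lists were chosen with earlier results of these data known. Listed genes were named when they passed limma's limit or 2-fold in at least 2 lines, at most 8 per list. The 5 genes most like *Dbp*, *Arntl* and *Per1* were those with the highest Pearson's r.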

Additional observations from a re-analysis of the deposited data

Results flagged for a closer look

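Among 17 expressed clock genes (the 10 and 7 further transcription factors), the change from day 0 to day 5 in a knockdown line went against that in shControl cells, with neither counting interval holding 0, in 3 of 51 values, of 3 genes. *Arntl* was 0.77 in shMLL1 and -1.0 in shControl cells. *Rora* was -0.29 in shNFIB and 1.21 in shControl cells. *Bhlhe41*, a repressor of CLOCK and BMAL1, was 0.46 in shNFIB and -0.33 in shControl cells. With 1 library per condition these differences were not tested. The share of all genes that meet this rule was not counted, so 3 of 51 is not read as many or few. *Gapdh* went from 158.7 to 234.8 RPKM in shNFIB cells, so the shNFIB values are lower relative to it. *Bhlhe41* rose there by a smaller factor, from 2.145 to 2.94 RPKM. Relative to *Gapdh* it was thus lower at day 5 in shNFIB cells and no longer went against shControl cells.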

How the results depend on the processing

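The count of clock genes called by limma was 5. It stayed at 5 with a pseudocount of 1, a filter of RPKM over 2, median-of-ratios scaling and quantile normalization (which lost *Per3* and added *Nr1d1*), but was 3 with no filter, 2 relative to *Gapdh*, 2 with no line block, and 2 to 4 with 1 line left out. The share of all genes called is given here for the main fit alone (50%), so these drops are not read as particular to the clock genes. No clock gene was over 2-fold in all 4 lines (0). *Per1* and *Nr1d2* passed in each of these limma fits, *Per2*, *Per3* and *Dbp* did not. With 1 added to each RPKM, 3 and not 8 day ratios, 0 and not 2 knockdown ratios and 1 and not 2 differences of the day change went past the limit; quantile normalization left 1 knockdown ratio. Relative to *Gapdh*, 8 day ratios were past the limit (2 of *Arntl* lost, *Nr1d2* in shNFIB and *Per2* in shControl cells added), 3 knockdown ratios (*Per2* lost, *Cry1* and *Nr1d2* in shNFIB cells at day 0 added) and, in an alternative chosen after seeing the data, 5 differences of the day change (*Arntl* in shNFIB cells lost, *Per1* and *Per2* in shNFIB and *Per3* and *Nr1d1* in shKDM4D cells added). That pseudocount shrinks ratios of low RPKM by construction; the cause of the other shifts was not tested. *Gapdh* itself ranged from 158.7 to 326.3 RPKM. No called ratio reversed. The lines were the pairs in the limma test; without that line block *Per2* (adjusted p = 0.124, limma), *Per3* (0.123) and *Dbp* (0.168) did not pass.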
